A study of Mus musculus with 8 samples.

Results

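The serpins were followed as a family in polarized intestinal epithelial cells exposed to interferon (IFN). Members were all non-control array probes whose deposited gene name begins with Serpin. This gave 78 probes for 62 gene names out of 39429 non-control probes, and 31 of these probes, for 27 gene names, belong to clade B, the clade of Serpinb1a. The cells were IEC10 (Mx2Luc), 1 immortalized mouse intestinal epithelial line made from a transgenic animal that carries firefly luciferase under the Mx2 promoter, so every group shares this transgene. They were grown on transwell inserts until polarized and were left untreated (control, n = 2 arrays), exposed to 20 ng/mL IFN-λ2 for 9 h (n = 3 arrays) or exposed to 500 U/mL IFN-β for 9 h (n = 3 arrays). The labels do not say that the arrays of a group came from separate cultures, so p-values measure only the spread between these arrays, which may be technical, and the small number of arrays limits the precision of every value. Both treatments were read against the same 2 control arrays. Each group always lay at the same position on the slide, so slide position and group cannot be told apart.

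Serpins are a superfamily of proteins with a common fold. Most of them trap a serine protease, and some a cysteine protease, by a change of shape that follows cleavage of an exposed reactive loop, while others have lost this activity and act as hormone carriers, chaperones or signals. Clade A and most other clades are secreted, and many are liver-derived plasma proteins. Clade B serpins lack a classical signal peptide and act mainly inside cells, where they protect the cell from its own or incoming proteases. Serpinb1a is a mouse counterpart of the human leukocyte elastase inhibitor, an inhibitor of the neutrophil proteases elastase, cathepsin G and proteinase 3.

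Signals are given in normalised units. Each array was scaled so that the 75th percentile of its probes was 1500, and values below the floor of 15 were set to 15. A log2 change is the difference of group means of log2 units ± the standard error of a limma fit over all 8 arrays, and a probe is said to have risen or fallen where its p, adjusted by Benjamini-Hochberg over all 25972 tested probes, was under 0.05. A probe was well above background where the scanner software marked it so.

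Much of the family was at the lower limit of the arrays. Of the 78 probes, 24 (21 genes) were well above background on every array, 20 on some arrays and 34 on no array. The filter on low values, which asked for a value above the floor on at least 2 arrays, kept 41 probes for 36 genes. Of the 37 probes it removed, 3 were well above background on at least 1 array (Serpina3a, Serpina3j and Serpina3k), and none exceeded 39.8 units. In clade B, 16 of 31 probes were tested. The clade B genes with no probe well above background on any array were Serpinb1b and Serpinb1c, the relatives nearest to Serpinb1a by name, together with Serpinb3a, Serpinb3b, Serpinb3d, Serpinb7, Serpinb9b, Serpinb9c, Serpinb9d, Serpinb10, Serpinb12 and Serpinb13. Outside clade B the same held for Serpina3c, Serpina3f, Serpina3m, Serpina3n, Serpina4-ps1, Serpina5, Serpina7, Serpina12, Serpinc1 (antithrombin), Serpine3 and Serpini2. For all of these the arrays give only a bound.

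After IFN-λ2, 8 of the 41 tested Serpin probes were higher than in control cells (19.5%, against 10% of all tested probes) and 3 were lower (7.32%, against 8.55%). The higher probes were those of Serpinb1a, Serpinb5, Serpinb6b, Serpinb8, Serpinb9, Serpinb9f, Serpinb11 and Serpina3h, and the lower ones those of Serpine2, Serpinh1 and Serpina3i. These counts hold 3 dim probes that say little about direction. Serpinb9f was compared with 1 control array and its sign turned with other values, while Serpinb11 and Serpina3i entered the test only through the group in which they were high. Among the probes well above background on every array, 5 of 9 in clade B rose and 0 fell, and 1 of 15 in the other clades rose and 2 fell. Of all 20267 tested probes this bright, 11.5% rose and 9.38% fell. The median log2 changes were 0.41 in the clade B probes and 0.21 in the others, beside 0.012 over all probes this bright. Over all tested members, dim ones included, the medians were 0.47 in clade B and 0.05 in the other clades, beside 0.00083 over all tested probes. This clade B median lies between 2 dim probes, Serpinb9e (0.44) and Serpinb9g (0.49), with control means of 16.2 and 15 units. Above it also lie Serpinb2 and Serpinb11, which passed the filter only through the IFN-λ2 arrays, so the filter partly set this median. With the replicate number, which is also the slide, as a block, 5 higher probes remained in place of 8. The count over all 25972 tested probes fell as well, to 1875 in place of 2604. These are whole cultures, so a change in the share of cells that express a gene and a change in RNA per cell cannot be told apart. Without control replicate 3 the count was 4, and without IFN-λ2 replicate 1 or IFN-λ2 replicate 3 it was 5.

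After IFN-β, 2 of 41 probes were higher than in control cells (4.88%, against 1.44% of all tested probes), those of Serpinb9 and Serpinb6b. This count was 1 with no filter or with the replicate block, where the count over all tested probes was 251 in place of 374. It was also 1 without control replicate 3, IFN-λ2 replicate 1 or 2 or any IFN-β replicate, and 0 by the methods' t-test. The probe of Serpina3i was called lower (2.44%, against 0.208%), but it passed the filter through the 2 control arrays, so this difference was largely fixed by the filter. Of the 24 probes well above background on every array 2 were higher (8.33%, against 1.62% of all probes this bright) and 0 lower (against 0.143%). The median log2 change was 0.13 in clade B and 0.16 in the other clades, beside 0.016 over all tested probes. Between the 2 treatments directly, 4 probes were higher after IFN-λ2 than after IFN-β (9.76%, against 5.53% of all tested probes), those of Serpinb1a, Serpinb5, Serpinb9 and Serpinb11. A further 4 were lower (9.76%, against 5.68%), those of Serpine2, Serpinh1, Serpinf1 and Serpina9. Serpinb11 passed the filter only through the IFN-λ2 arrays, so its difference was fixed by the filter. Among the probes well above background on every array, 3 of 9 in clade B were higher and 0 lower, and 0 of 15 in the other clades were higher and 4 lower, beside 5.95% higher and 6.08% lower of all probes this bright. The count of lower probes was 0 without IFN-λ2 replicate 1, 1 without IFN-λ2 replicate 2 and 1 without IFN-β replicate 3.

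**Figure D1:**
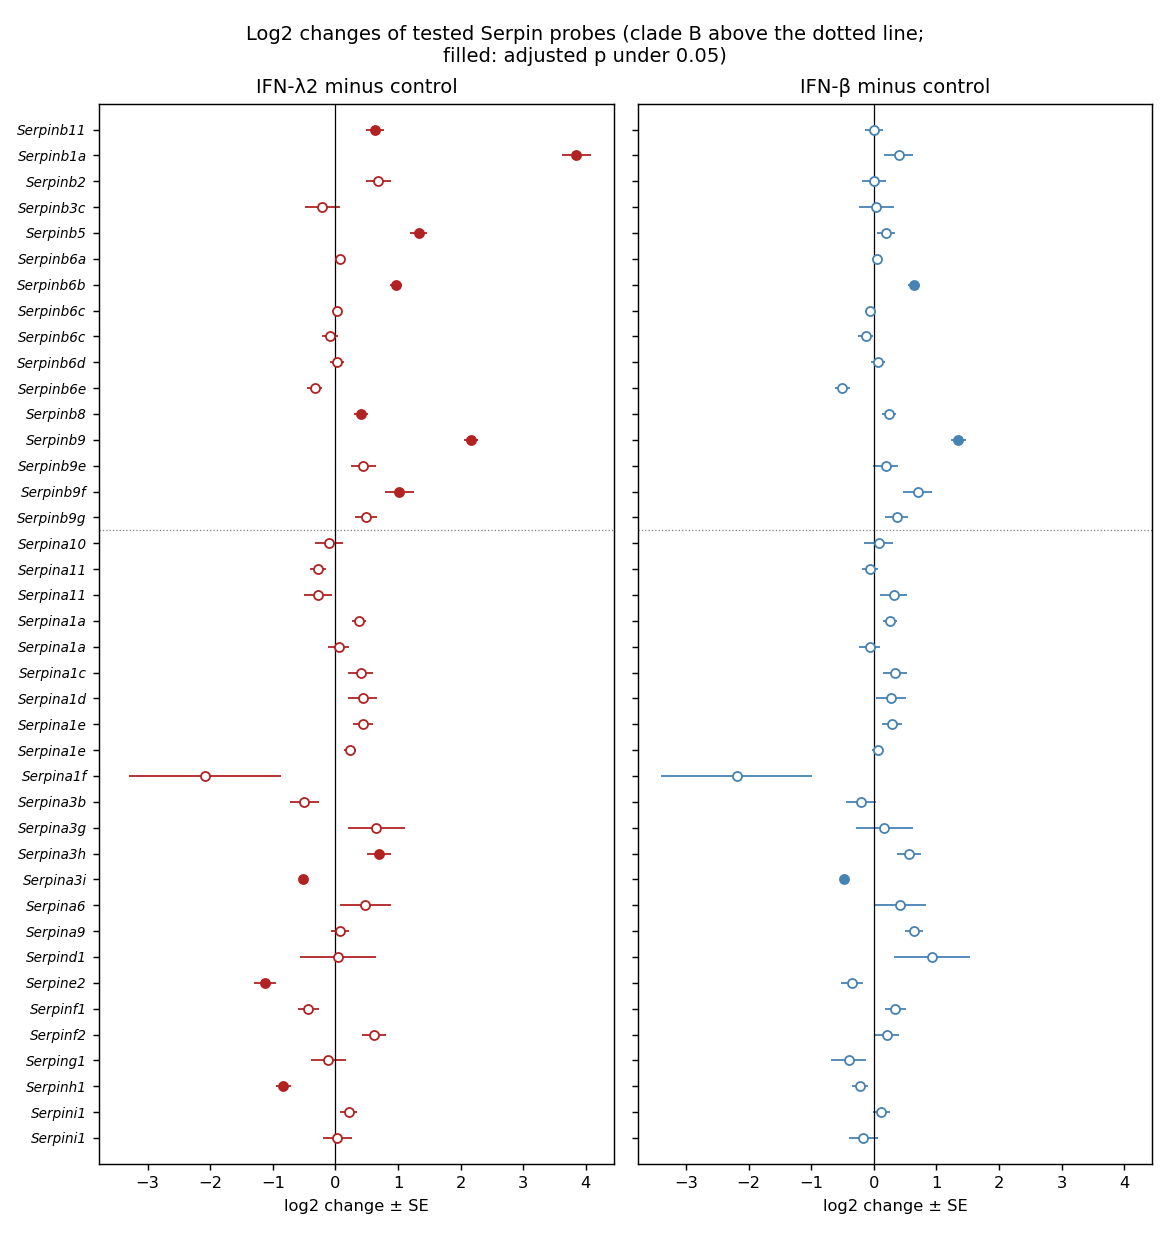
Log2 change ± SE of the tested Serpin probes, all but 1 of which are drawn, after IFN-λ2 (left) and IFN-β (right) against the same 2 control arrays, with clade B above the dotted line and filled points for an adjusted p under 0.05. Serpinb1a lies at 3.85 on the left and at 0.39 on the right. The filled points on the left are mostly clade B probes at positive values. Of these, Serpinb11 passed the filter only through the IFN-λ2 arrays, Serpinb9f rests on 1 control array, and Serpinb8 is just inside the threshold.

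Serpinb1a is read by 1 probe of 60 bases, on the minus strand at chr13:32934693-32934752 (mm9). Its sequence is shown because the strongest change of the family rests on it alone; no other Serpin probe matched it at more than 24 of 60 bases in an ungapped alignment.
Serpinb1a probe: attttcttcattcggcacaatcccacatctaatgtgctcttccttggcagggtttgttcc

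The signal of Serpinb1a was 119 and 120 units in the 2 control arrays. It was 2314, 1757 and 1255 units in the 3 IFN-λ2 arrays, and 172, 147 and 155 units in the 3 IFN-β arrays. The IFN-λ2 arrays lay far above all others, and the IFN-β arrays lay slightly above the control arrays without overlap. This was a log2 change of 3.85 ± 0.23 after IFN-λ2 (14.4-fold, adjusted p = 0.0001) and 0.39 ± 0.23 after IFN-β (1.31-fold, adjusted p = 0.57). Groups that did not overlap were found for 26.4% of all tested probes in the IFN-β comparison. Between the treatments the log2 difference was 3.45 ± 0.21 (10.9-fold higher after IFN-λ2, adjusted p = 0.00031). Within slides it was 3.75, 3.58 and 3.02 on slides 1, 2 and 3.

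Among the clade B relatives, Serpinb9 rose after both treatments and also differed between them. Serpinb9 encodes an intracellular inhibitor of granzyme B. Its signal was 1590 and 1457 units in control cells, 7887, 6500 and 6217 units after IFN-λ2, and 3832, 4076 and 3736 units after IFN-β. The 3 groups were fully separated, with IFN-β between control and IFN-λ2; such separation of the treatments was found for 32.3% of all tested probes, and of IFN-λ2 from control for 49.5%. The log2 change was 2.17 ± 0.12 after IFN-λ2 (4.49-fold, adjusted p = 5.4e-05) and 1.35 ± 0.12 after IFN-β (2.55-fold, adjusted p = 0.0012). By the methods' t-test the IFN-β call was lost (adjusted p = 0.054). The difference between the treatments was 0.82 ± 0.10 on the log2 scale (adjusted p = 0.0042).

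Serpinb6b, which encodes an intracellular serpin of the Serpinb6 group, rose after both treatments by less. Its signal was 9316 and 7794 units in control cells, 17167, 17456 and 15448 units after IFN-λ2, and 13109, 13622 and 13084 units after IFN-β. The order of the groups was that of Serpinb9, again without overlap. The log2 change was 0.97 ± 0.10 after IFN-λ2 (1.96-fold, adjusted p = 0.0011) and 0.64 ± 0.10 after IFN-β (1.56-fold, adjusted p = 0.028). By the methods' t-test the IFN-λ2 call was lost (adjusted p = 0.054). The difference between the treatments was 0.33 ± 0.09 (adjusted p = 0.061), with 0.39, 0.36 and 0.24 within slides 1, 2 and 3, and it was called in 6 of 20 alternatives (adjusted p from 0.029 to 0.046). The call after IFN-β was lost with the replicate block (0.63, adjusted p = 0.061), with no filter, only the 2 groups or the methods' t-test (from 0.058 to 0.26) and on leaving out control replicate 3, IFN-λ2 replicate 1 or 2, or any of the 3 IFN-β replicates (adjusted p from 0.057 to 0.11).

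Serpinb5, or maspin, a serpin without protease-inhibiting activity that is made by epithelia, also rose after IFN-λ2. Its signal was 188 and 151 units in control cells, 392, 417 and 461 units after IFN-λ2, and 216, 170 and 193 units after IFN-β. The IFN-λ2 arrays stood apart, while the control and IFN-β arrays overlapped. A log2 change of 1.33 ± 0.14 was found for Serpinb5 after IFN-λ2 (2.51-fold, adjusted p = 0.0013) and 0.19 ± 0.14 after IFN-β (adjusted p = 0.66). The difference between the treatments was 1.14 ± 0.13 (2.20-fold, adjusted p = 0.0025).

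Serpinb8, whose product can inhibit furin, was just inside the threshold after IFN-λ2. Its signal was 7700 and 6557 units in control cells, 10017, 9008 and 9359 units after IFN-λ2, and 7592, 9308 and 8356 units after IFN-β. The IFN-λ2 and IFN-β arrays overlapped. Log2 changes were 0.41 ± 0.12 after IFN-λ2 (adjusted p = 0.0497) and 0.24 ± 0.12 after IFN-β (adjusted p = 0.48). The IFN-λ2 call was lost with normexp (adjusted p = 0.092), quantile normalization (0.068), no floor (0.055), no filter (0.093), a fit of only those 2 groups (0.062), the methods' t-test (0.13) and the replicate block (0.091), and on leaving out control replicate 2 or 3, any of the 3 IFN-λ2 replicates or IFN-β replicate 3 (adjusted p from 0.059 to 0.23). Its probe is of low sequence complexity, with T or G at 50 of its 60 bases and a run of 14 alternating T and G.

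**Figure D2:**
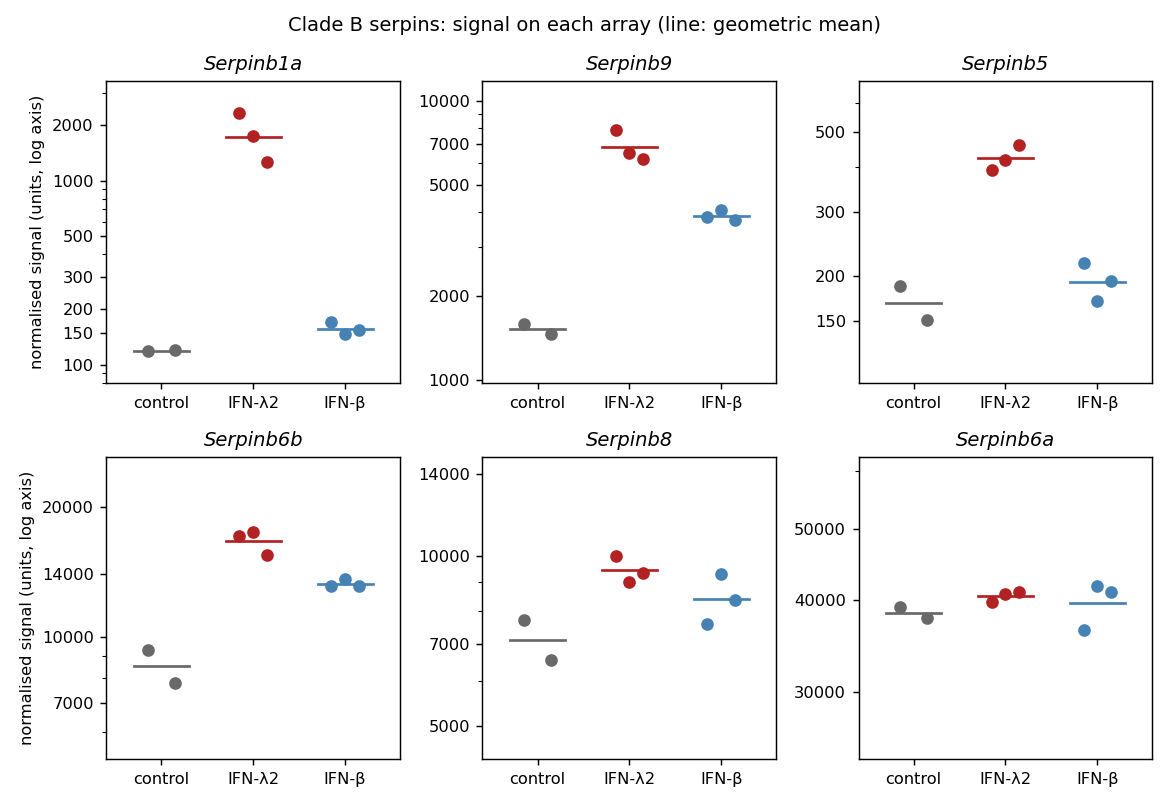
Normalised signal on each array (log axis, units) for 6 clade B genes in control, IFN-λ2 and IFN-β cells, with a line at the geometric mean of each group. Serpinb1a and Serpinb5 stand apart in the IFN-λ2 arrays only, Serpinb9 and Serpinb6b form 3 separate groups, and Serpinb6a lies at about the same level in all 8 arrays.

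The remaining clade B genes well above background on every array were called in no comparison. Serpinb6a, the counterpart of human SERPINB6, a cytoplasmic inhibitor of trypsin-like proteases, had 38440 ± 912 units in control cells (SD, n = 2), 40517 ± 641 units after IFN-λ2 (SD, n = 3) and 39770 ± 2878 units after IFN-β (SD, n = 3). Its log2 changes were 0.08 ± 0.08 and 0.05 ± 0.08. The brighter of the 2 Serpinb6c probes had group means of 31445, 31948 and 30122 units in the same order, and the dimmer one 7964, 7522 and 7292 units. Both gave log2 changes between -0.13 and 0.02. Serpinb6d had group means of 37.8, 38.6 and 39.6 units. The Serpinb6a probe and the dimmer Serpinb6c probe matched at 55 of 60 bases, so these 2 may share signal. Serpinb6e was dim, with log2 changes of -0.33 ± 0.12 and -0.51 ± 0.12 that were not called.

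The other 2 clade B calls after IFN-λ2 rest on dim signals. Serpinb11 was at the floor of 15 units in both control arrays and all 3 IFN-β arrays and read 28.8, 20.0 and 21.9 units after IFN-λ2, where 2 of 3 arrays were well above background. It passed the filter only through the IFN-λ2 arrays, so a tested difference was fixed by the filter and no fold is given. Its IFN-λ2 call was lost with the replicate block (adjusted p = 0.063), with no filter, only the 2 groups, a trended variance prior or the methods' t-test (from 0.064 to 0.18) and without either control replicate or IFN-λ2 replicate 3 (adjusted p from 0.052 to 0.11). Its call against IFN-β was lost with no filter, a trended variance prior or the methods' t-test (adjusted p from 0.064 to 0.11) and without IFN-λ2 replicate 3 or any of the 3 IFN-β replicates (adjusted p from 0.054 to 0.080). Serpinb9f read 30.9, 25 and 36.4 units after IFN-λ2 against 15 units in control replicate 3, while its value in control replicate 2 was dropped by the exclusion of faulty features. The deposited table holds 247 units there, and with those values the log2 change was -1.11, so no direction is given for Serpinb9f. Its call was also lost with the replicate block (adjusted p = 0.075), with normexp, no filter, only the 2 groups or the methods' t-test (from 0.078 to 0.23) and without IFN-λ2 replicate 1 or 3 or IFN-β replicate 3 (adjusted p from 0.054 to 0.086). Its probe also matched the Serpinb9g probe at 52 of 60 bases. Serpinb2, or plasminogen activator inhibitor 2, was at the floor in the control and IFN-β arrays and read 22.9, 32.1 and 19.1 units after IFN-λ2; like Serpinb11 it passed the filter only through those arrays.

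Serpinb1a was then set against the 8 other clade B probes that were well above background on every array by taking, on each array, the log2 signal of Serpinb1a minus that of the relative. Between IFN-λ2 and control cells this difference was larger by 1.68 (against Serpinb9) to 3.93 (against the dimmer Serpinb6c probe). Between IFN-λ2 and IFN-β cells it was larger by 2.31 (against Serpinb5) to 3.49 (against Serpinb6d). All 16 comparisons use the same Serpinb1a values, so they are not independent of each other. Serpinb1a was chosen with its change in these data known, so an excess over its relatives was to be seen in advance. The exact two-sided permutation test cannot reach 0.05 here: it gave p = 0.2 with 3 against 2 arrays and p = 0.1 with 3 against 3, the smallest it allows, and 0.2 after Benjamini-Hochberg adjustment over the 16.

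The clade B genes fall into 15 on chromosome 13 and 12 on chromosome 1. The chromosome 13 probes span chr13:32934693-34009855 (mm9), about 1075 kb. Serpinb1a lies at 1 end, followed by Serpinb1c, Serpinb6b and Serpinb9, and the opposite end holds Serpinb6d, Serpinb6e, Serpinb6c and Serpinb6a. Of the 11 tested probes on chromosome 13, 4 were called higher after IFN-λ2 (36.4%, beside 10% of all tested probes). The 3 genes of these other than the dim Serpinb9f lay among the first 4. Serpinb1c, between Serpinb1a and Serpinb6b, was well above background on no array. With 5 of the 15 genes untested, a link of calls to position was not tested. On chromosome 1, 5 probes were tested and 3 were called higher after IFN-λ2 (60%, beside 10% of all tested probes). The probes called there were those of Serpinb5, of Serpinb8, just inside the threshold, and of Serpinb11, whose difference was fixed by the filter.

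**Figure D3:**
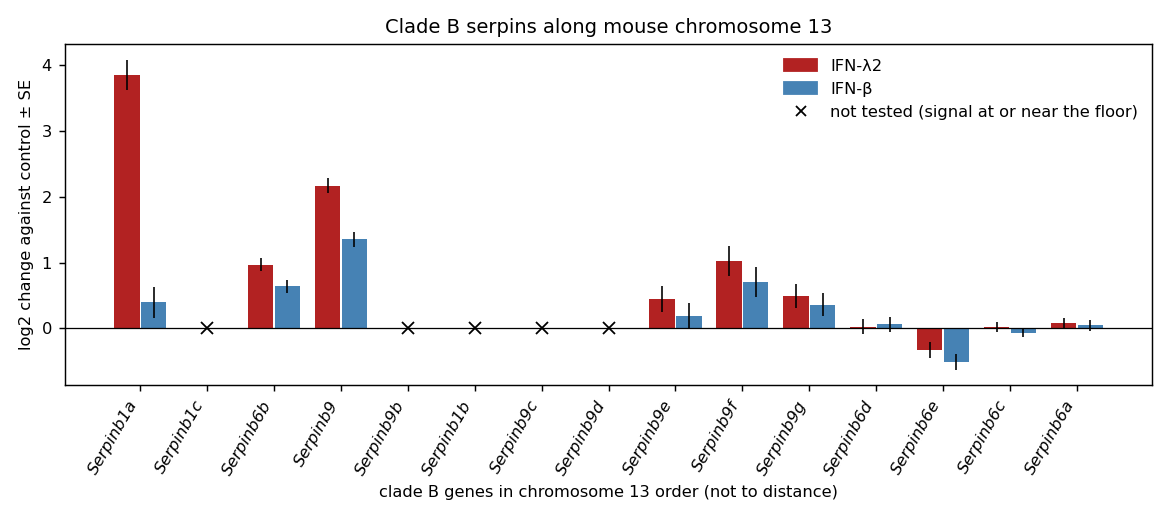
Log2 change ± SE against control of the 15 clade B genes of chromosome 13 in their order along the chromosome, each by its brightest probe, after IFN-λ2 (red) and IFN-β (blue); a cross marks the 5 genes that were not tested. The bars of Serpinb1a, Serpinb6b and Serpinb9 at the left reach 3.85, 0.97 and 2.17 after IFN-λ2, and those of Serpinb6a and Serpinb6c at the right stay near 0.

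Promoter sequences, 250 bases before to 50 bases after an annotated start, were read from RefSeq (GRCm38.p6) for 51 of the 62 genes; the other 11, Serpinb1a among them, were not matched by name in the table used here and were not searched. Those of 3 genes that rose (Serpinb9 and Serpinb6b after both treatments, Serpinb5 after IFN-λ2) and of Serpinb6a, which was not called, are shown in the direction of transcription. Capitals mark matches to the core of the interferon-stimulated response element, the site of the ISGF3 complex, searched as GAAA repeated after a gap of 2 bases, or to the gamma-activated sequence, written TTCNNNGAA. Both strands were searched.
Serpinb9, chr13:33004291-33004590, plus strand: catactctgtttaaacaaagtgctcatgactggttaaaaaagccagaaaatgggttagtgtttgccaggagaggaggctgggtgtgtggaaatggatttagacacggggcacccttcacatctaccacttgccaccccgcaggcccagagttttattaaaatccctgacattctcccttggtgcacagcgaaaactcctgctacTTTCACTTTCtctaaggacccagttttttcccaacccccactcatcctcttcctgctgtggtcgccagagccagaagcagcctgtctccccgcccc
Serpinb6b, chr13:32965011-32965310, plus strand: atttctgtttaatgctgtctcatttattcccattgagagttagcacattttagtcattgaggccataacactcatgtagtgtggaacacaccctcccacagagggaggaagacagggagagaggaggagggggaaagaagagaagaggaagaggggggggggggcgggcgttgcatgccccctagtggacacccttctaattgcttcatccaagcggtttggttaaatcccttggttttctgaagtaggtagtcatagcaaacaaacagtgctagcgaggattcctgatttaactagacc
Serpinb5, chr1:106860925-106861224, plus strand: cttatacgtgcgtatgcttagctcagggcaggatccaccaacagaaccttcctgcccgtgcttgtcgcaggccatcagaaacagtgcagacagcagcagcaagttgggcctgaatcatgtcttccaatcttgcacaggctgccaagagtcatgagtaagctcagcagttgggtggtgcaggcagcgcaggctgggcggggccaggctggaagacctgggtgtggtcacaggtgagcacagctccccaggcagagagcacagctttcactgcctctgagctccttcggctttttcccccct
Serpinb6a, chr13:34002745-34003044, minus strand: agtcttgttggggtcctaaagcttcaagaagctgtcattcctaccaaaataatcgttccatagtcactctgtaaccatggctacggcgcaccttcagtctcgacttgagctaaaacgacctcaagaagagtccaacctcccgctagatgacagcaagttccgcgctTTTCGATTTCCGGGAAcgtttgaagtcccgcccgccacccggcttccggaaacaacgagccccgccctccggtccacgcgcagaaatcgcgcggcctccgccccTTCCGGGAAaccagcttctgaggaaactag

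The response element core was present in the promoters of 3 member genes, Serpinb9, Serpinb6a and Serpina3a, or 3 of 60 member promoters (5.00%) beside 3.44% of all 32851 promoters. The match of Serpinb9 starts 46 bases before the annotated start. Serpinb6a, at 1 of its 2 listed starts, holds this core 84 bases before the start, overlapping a gamma-activated sequence match, and a second gamma-activated sequence match 20 bases after the start. The windows of Serpinb6b and Serpinb5 held neither motif. The gamma-activated sequence was found in 11 of 60 member promoters (18.3%, 8 genes) beside 8.30% of all promoters. For Serpinb2, Serpina11 and Serpina3f 1 site lies in 2 overlapping windows and is counted in each, so the share by promoter is higher than by separate sites. By gene it was 8 of 51. These are matches of letters, not measured binding sites.

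Outside clade B the clearest changes were decreases after IFN-λ2. Serpine2, or protease nexin 1, a secreted inhibitor of thrombin and urokinase, had 431 and 433 units in control cells. It read 182, 194 and 219 units after IFN-λ2 and 360, 267 and 403 units after IFN-β. All IFN-λ2 arrays lay below all others. The log2 change was -1.13 ± 0.18 after IFN-λ2 (2.19-fold lower, adjusted p = 0.0062) and -0.35 ± 0.18 after IFN-β (adjusted p = 0.50). The difference between the treatments was -0.77 ± 0.16 (adjusted p = 0.023), a call that was lost with no filter (0.067), by the methods' t-test (0.11) and without IFN-λ2 replicate 1 or 2 or IFN-β replicate 1 or 3 (adjusted p from 0.066 to 0.091).

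Serpinh1, or Hsp47, the collagen-specific chaperone of the endoplasmic reticulum, had 10883 and 10059 units in control cells. It read 5278, 6195 and 6222 units after IFN-λ2 and 7823, 9371 and 9870 units after IFN-β, so the 3 groups were separated, with the IFN-λ2 arrays lowest. The log2 change was -0.83 ± 0.13 after IFN-λ2 (1.78-fold lower, adjusted p = 0.0057) and -0.22 ± 0.13 after IFN-β (adjusted p = 0.56). By the methods' t-test the IFN-λ2 call was lost (adjusted p = 0.058). The difference between the treatments was -0.61 ± 0.11 (adjusted p = 0.017), which was not called by the methods' t-test (0.080) or without IFN-λ2 replicate 1 or IFN-β replicate 2 or 3 (adjusted p from 0.051 to 0.062).

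Serpinf1 and Serpina9 were called only in the direct comparison of the treatments. Serpinf1 encodes pigment epithelium-derived factor, a secreted serpin without inhibitory activity. Its brighter probe read 101 and 98.1 units in control cells, 65.1, 72.1 and 85.3 units after IFN-λ2, and 152, 119 and 110 units after IFN-β. After IFN-λ2 it was lower than after IFN-β by a log2 difference of -0.77 ± 0.15 (adjusted p = 0.019). It was not called with normexp background correction (-0.30, adjusted p = 0.23), with the replicate block (-0.77, adjusted p = 0.066), with no filter (0.056), by the methods' t-test (0.097) or without IFN-λ2 replicate 1 or 2 (adjusted p from 0.061 to 0.071), and neither change against control was called (adjusted p = 0.12 and 0.49). The second Serpinf1 probe was at the floor on all arrays. Serpina9, or centerin, known from germinal centre B cells, read 162 and 154 units in control cells, 172, 153 and 173 units after IFN-λ2, and 293, 211 and 241 units after IFN-β. The IFN-β arrays were highest. IFN-λ2 minus IFN-β gave -0.57 ± 0.13 on the log2 scale (adjusted p = 0.032), and it was not called with normexp (-0.32, adjusted p = 0.21), no filter (0.078), only the 2 groups (0.054) or the methods' t-test (0.12), or without either control replicate, any of the 3 IFN-λ2 replicates or IFN-β replicate 3 (adjusted p from 0.054 to 0.095).

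**Figure D4:**
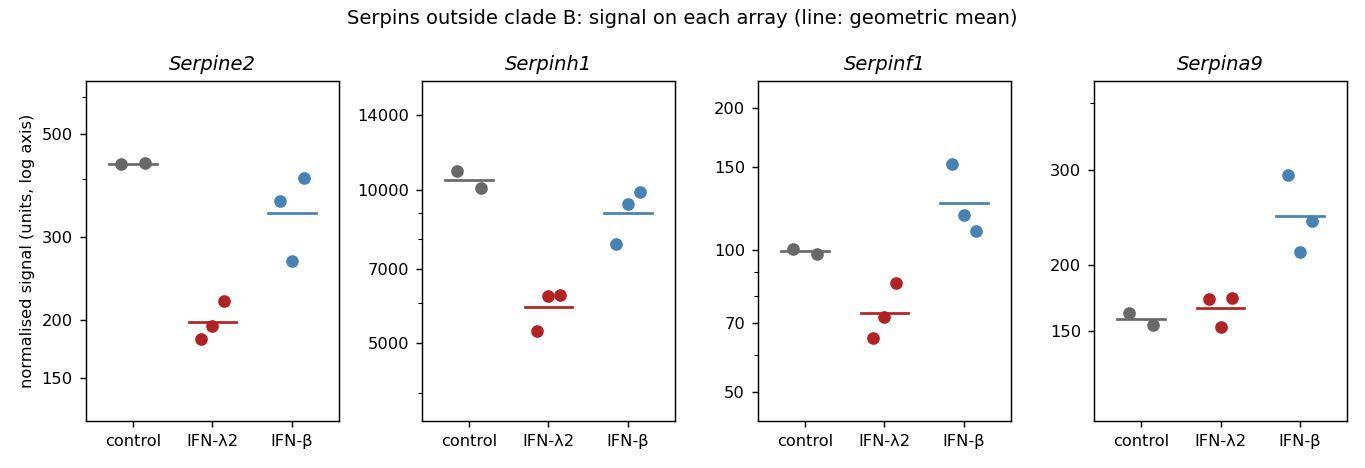
Normalised signal on each array (log axis, units) for Serpine2, Serpinh1, Serpinf1 and Serpina9 in control, IFN-λ2 and IFN-β cells, with a line at the geometric mean of each group. The IFN-λ2 arrays are lowest for Serpine2, Serpinh1 and Serpinf1, and the IFN-β arrays are highest for Serpina9.

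Of the Serpina3 group, relatives of human antichymotrypsin, 2 members were called and both stood near a limit. Serpina3h read 57.2 and 41.3 units in control cells, 68.9, 97.5 and 72.4 units after IFN-λ2, and 65.7, 72.7 and 77.7 units after IFN-β. Its log2 change after IFN-λ2 was 0.69 ± 0.19 (adjusted p = 0.04995). This call was lost with quantile normalization, no floor, no filter, no feature excluded, only the 2 groups or the methods' t-test (adjusted p from 0.052 to 0.23), and without control replicate 3 or any of the IFN-λ2 or IFN-β replicates (adjusted p from 0.064 to 0.24). Serpina3i read 21.3 and 21.5 units in the 2 control arrays, the only ones in which it was well above background, and 15 to 15.9 units in the other 6. It passed the filter through those control arrays, so no fold is given. Its change after IFN-λ2 turned to 0.15 with normexp background correction and was not called with a trended variance prior (adjusted p = 0.078). Its call after IFN-β was lost with the replicate block (adjusted p = 0.075), with normexp, no floor, only the 2 groups, a trended variance prior or the methods' t-test (from 0.089 to 0.9996) and without either control replicate or IFN-β replicate 2 or 3 (adjusted p from 0.061 to 0.067).

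Outside clade B a further 10 probes, for 8 genes, were well above background on every array and called in no comparison, with log2 changes against control between -0.50 and 0.61. The alpha-1-antitrypsin genes, whose human counterpart is the main plasma inhibitor of neutrophil elastase, were read by cross-matching probes: those of Serpina1a and Serpina1c matched at 50 of 60 bases and those of Serpina1c and Serpina1e at 49. These 3 probes had group means of 152 to 161 units in control cells, 197 to 219 units after IFN-λ2 and 182 to 197 units after IFN-β. Serpini1, or neuroserpin, had 184, 214 and 201 units by its brighter probe, and Serpinf2, the plasmin inhibitor alpha-2-antiplasmin, had 53.9, 82.5 and 62.6 units (adjusted p = 0.067 after IFN-λ2). Single arrays stood out for 2 dim members. Serpina1f read 432 units in control replicate 2 and 15 to 23.7 units elsewhere, and Serpind1, or heparin cofactor II, read 98.0 units in IFN-β replicate 3 and 17.4 to 27.0 units elsewhere. Serping1, the inhibitor of complement C1, read 15 to 30.4 units.

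The proteases that serpins act on, taken from a fixed list of 39 genes, were read next. Of 26 tested, 5 rose (19.2%, beside 10% of all tested probes) and 1 fell (3.85%, beside 8.55%) after IFN-λ2, and 1 rose (3.85%, beside 1.44%) and 0 fell after IFN-β, with a median log2 change of 0.07 in both. After IFN-λ2 the transmembrane serine protease Tmprss2 rose by 1.18 ± 0.18 on the log2 scale (adjusted p = 0.0054). Gzmm, granzyme M, rose by 0.62 ± 0.09 (adjusted p = 0.0052) and was well above background on all 8 arrays. Tmprss4, a relative of Tmprss2 (adjusted p = 0.0083), and the kallikrein Klk1 (adjusted p = 0.0087) also rose, on signals that were well above background on 4 and 3 of the 8 arrays. The protease that fell was C1rb, a C1r relative, at 33.6 units in control cells and 21.5 after IFN-λ2 (-0.66 on the log2 scale, adjusted p = 0.0497). The inflammatory caspase Casp4 rose by 0.79 after IFN-λ2 and by 0.77 after IFN-β. The targets of the Serpinb1a product were not called: Elane, neutrophil elastase, read 493 to 804 units, Prtn3, proteinase 3, read 15 to 22.3 units, and Ctsg, cathepsin G, was at the floor of 15 units on every array.

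Among 11 tested receptors and cofactors of serpins, 2 rose (18.2%, beside 10% of all tested probes) and 1 fell (9.09%, beside 8.55%) after IFN-λ2 and 0 were called after IFN-β, so single calls decide these shares. Plaur, the urokinase receptor, rose by 0.65, Pnpla2, a lipase that binds the Serpinf1 product, rose by 0.51, and the proteoglycan Sdc1 fell by 0.38 on the log2 scale. Of 25 tested inhibitors outside the serpin family, 3 rose (12%, beside 10% of all tested probes) and 1 fell (4%, beside 8.55%) after IFN-λ2, and 1 rose after IFN-β (4%, beside 1.44%). Spink2, a Kazal-type inhibitor, rose by 3.14 after IFN-λ2 and by 2.13 after IFN-β. Timp3, an inhibitor of metalloproteinases, rose by 1.57 after IFN-λ2, with -0.08 after IFN-β (adjusted p = 0.95), while Timp1 fell by 0.51 after IFN-λ2. The epithelial inhibitor Slpi, which also acts on neutrophil elastase, rose by 0.67 after IFN-λ2.

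As a check of the treatments, all 12 listed interferon-stimulated genes rose after both, with a median log2 change of 4.14 after IFN-λ2 and 3.72 after IFN-β. All 9 epithelial markers were well above background on every array; of these, 2 rose (22.2%, beside 10% of all tested probes) and 2 fell (22.2%, beside 8.55%) after IFN-λ2. Their summed signal was 346638 to 371477 units in control cells, 373609 to 397585 units after IFN-λ2 and 340533 to 386566 units after IFN-β. Since the Serpinb1a product and its targets are best known from neutrophils, the neutrophil list was read as well. Of its 9 genes on the array, 5 were tested and 2 were well above background on every array. In no comparison was any of the 5 called, beside 10% higher and 8.55% lower of all tested probes after IFN-λ2 and smaller shares in the other comparisons. So few tested genes cannot show an absence of change. The granule genes Mpo, Ngp and Ctsg were at the floor throughout. The summed signal of the neutrophil list was 28407 to 32150, 23683 to 25440 and 24520 to 37274 units in control, IFN-λ2 and IFN-β cells, nearly all from Csf3r. Of the few tested markers of other leukocytes (8), fibroblasts (3) and endothelium (2), 0 were called. Of 4 tested hepatocyte markers 1, Fgb, was called lower after both treatments (adjusted p = 0.0051 and 0.022). This is 25%, beside 8.55% and 0.208% of all tested probes. Fgb was well above background on no array and passed the filter only through the control arrays. The part of neutrophil RNA in the Serpin changes was not tested.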

How the data were processed

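Single-colour Agilent arrays of 8 samples were scanned and extracted by the authors with Feature Extraction 10.7.3.1, and the deposited values used here are probe intensities: the processed intensity of each feature in the scanner files and a table of normalised intensity per probe. Per the labels and methods the authors left out flagged, outlying or uneven features, averaged copies of a probe by the geometric mean and scaled each array to a 75th percentile of 1500 with a floor of 15. Steps following this description were applied here to the scanner files, and they did not return the deposited scale exactly. Other deposited columns, such as the outlier and background flags, were used as given. Over the member probes above the floor, signals computed here were 1.08 to 1.10 times the deposited ones in the median array by array. Members were found by the deposited gene name, and 1 name was updated (Serpinb10-ps to Serpinb10). Probe coordinates are those of the files (mm9). The filter asked for a value above the floor on 2 or more arrays, and the probes left were fitted on the log2 scale with limma 3.58.1 (R 4.3.3) in 1 model of 3 groups, tested two-sided, with Benjamini-Hochberg adjustment over all 25972 probes. Tables were made with Python, pandas and scipy. In simulated data of the same size, 200 probes were shifted by 2 log2 units in the IFN-λ2 group, with independent noise and no slide effect. The fit recovered 173 of them against control with 9 false calls. Smaller changes, such as most of the Serpin changes given here, were not simulated.

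Values of every array are given for Serpinb1a and each member called in any comparison with all arrays of at least 1 compared group well above background; clade B genes well above background on every array are given whether called or not; other members are given by counts, ranges and names, and genes outside the family only from fixed lists. Serpinb11, Serpinb9f, Serpinb2, Serpinb6e, Serpina1f, Serpind1, Serping1 and the uncalled members named with values fall outside this rule and were chosen after their values were seen. The members and lists were chosen with earlier results of these data known. A control replicate 1 was not analysed here. Replicate numbers coincide with slides. The deviations of IFN-λ2 and IFN-β arrays of 1 number correlated at 0.18, 0.25 and 0.30, while IFN-λ2 and control arrays gave 0.0012 and -0.0097. The main model held no block, so its tests between the treatments leave this pairing of arrays unused. The replicate block was run only as an alternative. Alternatives covered background correction, scaling, floor, filter, feature exclusion, block, left-out arrays and test. 1 tested member gene is counted but not reported by name here.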

Additional observations from a re-analysis of the deposited data

How the results depend on the processing

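For Serpinb1a the direction and the side of the threshold were the same in all 20 alternatives in each of the 3 comparisons, with log2 changes of 3.25 to 4.07 after IFN-λ2, 0.23 to 0.45 after IFN-β and 3.03 to 3.68 between the treatments. Serpinb9 and Serpinb5 after IFN-λ2, and Serpine2 after IFN-λ2, were likewise called in all 20. normexp background correction moved the median of all probes by 0.11 both for IFN-λ2 against control and between the treatments, and gave 1493 higher and 641 lower probes after IFN-λ2 in place of 2604 and 2220.

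The counts of Serpin probes moved more, and where no other cause is named the cause was not tested. Higher after IFN-λ2, the 8 became 4 with no filter, 5 with the replicate block, 5 in a fit of only those 2 groups, 4 by the methods' t-test after Benjamini-Hochberg adjustment and 4 where at least 2-fold was asked as well, and leaving out 1 array gave 4 to 9. Lower after IFN-λ2, the 3 became 1 at 2-fold, and 3 to 4 without 1 array. Higher after IFN-β, the 2 became 1 with no filter, the replicate block, only the 2 groups or 2-fold, and 0 by the methods' t-test, with 1 to 2 without 1 array. Lower after IFN-β, the 1 became 0 with normexp, no floor, a floor of 50 units, the replicate block, only the 2 groups, a trended variance prior, the methods' t-test or 2-fold, with 0 to 1 without 1 array. Higher after IFN-λ2 than IFN-β, the 4 became 2 at 2-fold, with 3 to 5 without 1 array. Lower in that comparison, the 4 became 2 with normexp, 1 with no filter, and 0 by the methods' t-test or at 2-fold, with 0 to 3 without 1 array. With no filter more probes enter the adjustment, and a 2-fold rule keeps fewer probes by construction.

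Among single genes, Serpina3i after IFN-λ2 turned to 0.15 with normexp, and Serpinb9f after IFN-λ2 turned to -1.11 with the deposited values and -1.06 with no feature excluded, both of which keep the bright value of control replicate 2. The methods' t-test gave an adjusted p of 0.054 for Serpinb6b after IFN-λ2, 0.054 for Serpinb9 after IFN-β and 0.058 for Serpinh1 after IFN-λ2. The replicate block changed no call of a named gene other than those given with the results. A longer form of the response element (AGTTTC and TTTC 2 bases apart) was in 0.271% of all promoters and in 0 member promoters. The planned comparison of protein identity with Serpinb1a was not run. Signal near the floor limits 54 of the 78 probes, which were not well above background on every array.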
